A study of Mus musculus with 3 samples.

Results

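The classical cadherins and catenins of the adherens junction were examined across the HDAC3 and KLF4 peak lists of mouse epidermis: E-cadherin (Cdh1), P-cadherin (Cdh3), β-catenin (Ctnnb1), p120-catenin (Ctnnd1) and α-catenin (Ctnna1). Peaks were chosen by position alone: a peak belonged to a gene when the nearest end of any protein-coding gene was an end of that gene, or when its centre lay within 1 kb of such an end. This gave 34 HDAC3 peaks of 57920 on chromosomes and 33 KLF4 peaks of 47140, for 5 of 21887 protein-coding genes. Wild-type embryos at E18.5 gave the dorsal epidermis, with 1 library precipitated for HDAC3 (Abcam ab7030), 1 for KLF4 (R&D AF3158) and 1 input library without antibody. The labels give no strain and no number of embryos, and chromatin of the whole epidermis was used, so a site bound in some cells and a site bound weakly in every cell cannot be told apart. Each antibody had a single library, so there was no spread between replicates and no difference was tested. The depth behind the lists was 56787485 tags for HDAC3 and 61432711 for KLF4, and intervals cover counting error only. The peak lists hold no expression values, so the tissue could not be checked against marker genes.

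Classical cadherins are calcium-dependent adhesion receptors that bind the same cadherin on the neighbouring cell. E-cadherin is found through all living layers of the epidermis, and P-cadherin mainly in the basal layer and the hair follicle. Inside the cell β-catenin and p120-catenin bind the cadherin tail, and α-catenin links β-catenin to actin filaments. A separate pool of β-catenin enters the nucleus and serves as the coactivator of Wnt signalling. HDAC3 is the catalytic deacetylase of the NCoR and SMRT corepressors. KLF4, a zinc finger factor of the suprabasal layers, binds DNA with a CACCC core.

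The RefSeq promoter table (GRCm38.p6, 250 bases before to 50 after a transcript start) had entries for Ctnnb1 and Ctnnd1. There were 2 windows for each, of which 3 are shown because they held the CACCC core and lay beside or under a peak, with CACCC or its complement GGGTG in capitals, each written 5′ to 3′ on the gene's strand.
Ctnnd1 internal start, chr2:84650691-84650990, minus strand: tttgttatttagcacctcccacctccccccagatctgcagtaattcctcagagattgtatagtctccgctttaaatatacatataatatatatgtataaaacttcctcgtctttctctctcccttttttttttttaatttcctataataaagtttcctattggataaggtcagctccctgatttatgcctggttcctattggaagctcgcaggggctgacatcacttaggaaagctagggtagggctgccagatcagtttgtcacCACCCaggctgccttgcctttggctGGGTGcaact
Ctnnd1 outer start, chr2:84658928-84659227, minus strand: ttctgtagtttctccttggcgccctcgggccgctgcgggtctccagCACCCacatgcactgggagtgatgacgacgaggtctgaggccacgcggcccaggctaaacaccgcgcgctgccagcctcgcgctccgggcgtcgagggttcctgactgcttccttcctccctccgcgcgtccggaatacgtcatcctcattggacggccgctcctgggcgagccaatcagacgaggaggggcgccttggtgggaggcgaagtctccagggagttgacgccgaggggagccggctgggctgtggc
Ctnnb1 outer start, chr9:120933150-120933449, plus strand: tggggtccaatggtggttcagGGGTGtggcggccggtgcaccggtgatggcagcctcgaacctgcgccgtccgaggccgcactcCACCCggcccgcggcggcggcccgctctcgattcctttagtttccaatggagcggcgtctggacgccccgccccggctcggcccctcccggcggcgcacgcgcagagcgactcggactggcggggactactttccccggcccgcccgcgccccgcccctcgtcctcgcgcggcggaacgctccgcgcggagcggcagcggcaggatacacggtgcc
The HDAC3 and KLF4 peaks at the internal start of Ctnnd1 covered the last 56 bases of its window, and the 2 CACCC matches of that window both fell within these bases. The outer window of Ctnnd1 held 1 match, with the nearest HDAC3 peak 562 bp and the nearest KLF4 peak 8182 bp away. The Ctnnb1 window shown held 2 matches, the first of them inside GGGTGTGG, and the nearest HDAC3 and KLF4 peaks lay 454 and 426 bp away. The other Ctnnb1 window, chr9:120933328-120933627, overlaps it and held neither CACCC nor GGGTGTGG. A CACCC match on either strand was common, in 57.5% of the 32851 windows of the table, whereas GGGTGTGG or its complement was in 3.56%. None of the 4 windows of Ctnnb1 and Ctnnd1 held the AP-1 sequence TGANTCA (7.81% of all windows), the grainyhead sequence AACCGGTT (0.146%) or the TEAD sequence CATTCC (14.7%).

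The 5 genes differed in how they were occupied. Cdh3 and Cdh1 carried the highest peaks, mostly away from their ends. Ctnnb1 had peaks along a long stretch before its start and none inside. Ctnnd1 was occupied within the gene, with 7 HDAC3 and 6 KLF4 peaks inside. Ctnna1 had few peaks assigned to it, none of them in the top 10% of either list. Counted by position alone, 6 peaks of each factor lay inside Ctnna1, most of them nearer to an end of another gene. Peak height is given as the score, the caller's position-adjusted tag number, which ranks peaks within a list but not between lists. Signal is given as normalised tags, which the authors had scaled to a library of 10000000 tags.

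The cadherin genes lie side by side on chromosome 8. The gene table gives no strand for them, so "before" a cadherin gene means at lower coordinates and "beyond" it at higher ones. Cdh3 (chr8:106510852-106556911, GRCm38) had 9 HDAC3 and 8 KLF4 peaks, and Cdh1 (chr8:106603350-106670247) had 4 HDAC3 and 7 KLF4 peaks. Of the 13 HDAC3 peaks of both genes, 7 scored in the top 10% of their list (53 or above), and of the 15 KLF4 peaks 9 did (173 or above). With ties, that level takes in 10.2% of all HDAC3 peaks and 10.1% of all KLF4 peaks. All 4 HDAC3 peaks of Cdh1 were in the top 10%, with scores of 83 to 136.

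The highest site lay in the 46438 bp between the genes. Its HDAC3 peak, chr8:106563980-106564164, scored 245, with 67.6 normalised tags, 4 input tags and a 47.0-fold enrichment over input. The KLF4 peak, 25 bp away at chr8:106563955-106564139, scored 390, with 69.2 normalised tags, 5 input tags and a 38.5-fold enrichment. The peaks lay 7161 bp (HDAC3) and 7136 bp (KLF4) beyond Cdh3. This is the top score of the HDAC3 list, while the KLF4 peak stood at the 99.2 percentile of its own.

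The same interval held 3 HDAC3 and 6 KLF4 peaks in all. KLF4 had 4 sites there without HDAC3: scores of 155, 223 and 184 at 4417, 15493 and 20376 bp beyond Cdh3, and of 201 at 16211 bp before Cdh1. The last was centred 4 bp from an end of the noncoding RNA gene 1110028F18Rik. HDAC3 had 1 site there without KLF4, with a score of 37 at 23190 bp beyond Cdh3. This peak and the KLF4 peaks of 223 and 184 were nearer to the pseudogene Gm10073 than to Cdh3, at 6669, 561 and 3855 bp. A second shared site lay 21796 bp before Cdh1, where KLF4 had its highest Cdh1 peak. Its HDAC3 and KLF4 peaks were nearer to 1110028F18Rik than to Cdh1, at 5575 and 5589 bp. At this shared site HDAC3 scored 102 with 22.9 normalised tags, and KLF4 scored 356 with 66.1. Input was high at that site, with 13 tags, against 2.57 under an even spread of the input library, and the HDAC3 enrichment of 4.89-fold was close to the calling limit of 4-fold.

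Inside the cadherin genes, the highest HDAC3 peak of Cdh1 lay 12766 bp from its lower-coordinate end, at chr8:106616024-106616208. It scored 136 with 37.9 normalised tags, and the KLF4 peak 5 bp away scored 225 with 38.4. A further shared site 43418 bp into Cdh1 scored 83 for HDAC3 and 200 for KLF4. Between them the factors parted: an HDAC3 peak of 93 at 16225 bp had its nearest KLF4 peak 3454 bp off, and KLF4 peaks of 218 and 171 stood at 20005 and 20811 bp. Cdh3 had one shared intragenic site, 19191 bp inside, with scores of 91 for HDAC3 and 218 for KLF4. An HDAC3 peak of 93 stood 1363 bp from the KLF4 peak of that pair without a KLF4 peak of its own, and KLF4 peaks of 76 and 40 stood elsewhere in the gene without HDAC3.

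Cdh3 was the one cadherin with peaks at an end. HDAC3 scored 36 at 241 bp and KLF4 scored 34 at 274 bp outside its lower-coordinate end, with 7.92 and 5.53 normalised tags. The counting interval of their ratio, 0.897 to 2.30, includes 1. Before this end lay 4 further HDAC3 peaks with scores of 20 to 37, out to 41272 bp, and no KLF4 peak was assigned there. At Cdh1 no peak of either list was centred within 1 kb of an end. The nearest was a KLF4 peak of 39 at 1910 bp beyond the higher-coordinate end, on the side of Tango6.

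**Figure D1:**
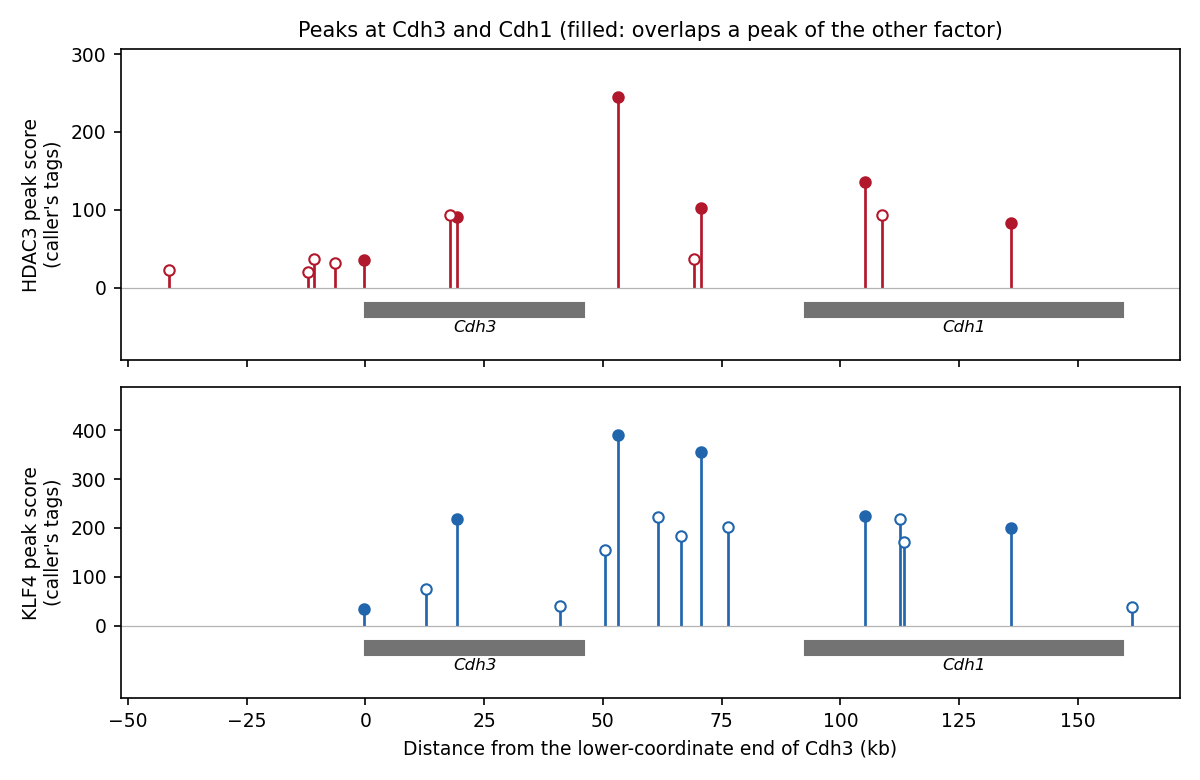
Peak scores of HDAC3 (upper panel) and KLF4 (lower panel) against distance in kb from the lower-coordinate end of Cdh3; grey bars are the genes, and filled points overlap a peak of the other factor by at least 1 bp. The tallest stem in either panel stands between the genes, with a score of 245 for HDAC3 and 390 for KLF4, and the 4 open HDAC3 points before Cdh3 have no KLF4 counterpart.

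Among the catenins, Ctnnb1 (chr9:120933400-120960507, plus strand) had 11 HDAC3 and 10 KLF4 peaks. None of the 21 lay inside the 27108 bp of the gene. Of protein-coding genes 0.5 to 2 times as long, 29.9% (2314 of 7751) also had no peak of either factor inside. All 11 HDAC3 peaks and 9 of the 10 KLF4 peaks preceded the start, the farthest at 142607 bp for HDAC3 and 173391 bp for KLF4, in a stretch where Ctnnb1 has no protein-coding neighbour nearer. Several noncoding RNA genes lie in that stretch, so assignment to Ctnnb1 is one of position only.

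The start of Ctnnb1 carried both factors, below the top 10% of either list. The HDAC3 peak 796 bp before it, chr9:120932512-120932696, scored 33 with 7.57 normalised tags, and the KLF4 peak at 768 bp scored 48 with 7.65. Input there was 1 tag, which gave enrichments of 21.0-fold for HDAC3 and 21.3-fold for KLF4. The highest Ctnnb1 site lay 14127 bp before the start, chr9:120919181-120919365. HDAC3 scored 93 with 22.9 normalised tags, and KLF4 scored 339 with 61.9. This site had 14 input tags, the most of any peak in the set, and HDAC3 was 4.54-fold over input.

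Farther out, shared pairs at 39811 and 102572 bp scored 48 and 33 for HDAC3, with 91 and 87 for KLF4 beside them. The other 7 HDAC3 peaks scored 24 to 35 and overlapped no KLF4 peak, although one at 134434 bp had a KLF4 peak of 59 centred 279 bp away, beyond the 184 bp that counts as overlap. KLF4 peaks of 54 and 30 at 56047 and 20154 bp also stood alone. KLF4 had higher sites of its own with scores of 293 and 188 at 169237 and 173391 bp, with no HDAC3 peak nearer than 26630 bp. Another, with a score of 129, lay 1854 bp past the other end of the gene, towards the gene Ulk4.

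Ctnnd1 (chr2:84587096-84658977, minus strand, so that transcription begins at the higher-coordinate end) had 9 HDAC3 and 6 KLF4 peaks. All 6 KLF4 peaks and 7 of the HDAC3 peaks lay inside the gene, and 4 sites were shared. The highest of these, at chr2:84633011-84633195 and 25874 bp from the outer start, scored 75 for HDAC3 with 16.2 normalised tags, and 260 for KLF4 with 45.3. It had 10 input tags and an HDAC3 enrichment of 4.50-fold.

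At 32481 bp from the outer start HDAC3 had more normalised tags than KLF4, which does not mean more occupancy. HDAC3 scored 67 with 14.1 normalised tags, and KLF4 scored 62 with 9.28. No input tag was recorded at this site, which the lists write as 0.5, so the 80.3-fold and 51.6-fold enrichments rest on that substitute value. The internal start of Ctnnd1 shown above carried both factors at exactly the same interval, chr2:84650562-84650746. There HDAC3 scored 47 with 11.4 normalised tags, and KLF4 scored 77 with 12.5, with a further KLF4 peak of 78 centred 796 bp away. Of all 14962 overlapping pairs in the lists, 129 (0.862%) shared the exact interval.

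The outer start of Ctnnd1 had an HDAC3 peak alone, 703 bp inside the gene, also within 1 kb of an end of the neighbouring gene Btbd18. It scored 16, equal to the lowest score in its list, with 4.58 normalised tags and a 4.24-fold enrichment. The fourth shared site, 39766 bp from the outer start, scored 34 for HDAC3 and 45 for KLF4. The remaining HDAC3 peaks without KLF4 scored 19 to 26, of which one lay 1843 bp beyond the transcript end.

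Ctnna1 (chr18:35118902-35254776) had the lowest maximum score of the 5 genes for each factor. Its single HDAC3 peak scored 24 with 4.93 normalised tags, 12275 bp inside the higher-coordinate end. Its 2 KLF4 peaks scored 96, at 592 bp inside the lower-coordinate end, and 55, at 10911 bp inside the other. No pair overlapped, and the closest HDAC3 and KLF4 centres were 1364 bp apart. The KLF4 peak of 96 is nearer to an end of the predicted gene Gm46617, which overlaps the start of the Ctnna1 interval, and was taken through the 1 kb rule. The gene is long, and most peaks inside it are nearer to Gm46617 or to Lrrtm2, a neuronal leucine-rich repeat gene nested within it. Counting all peaks within its 135875 bp gave 6 for HDAC3 and 6 for KLF4. Those not assigned to Ctnna1 scored 16 to 25 for HDAC3 and 26 to 62 for KLF4, and none was shared.

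**Figure D2:**
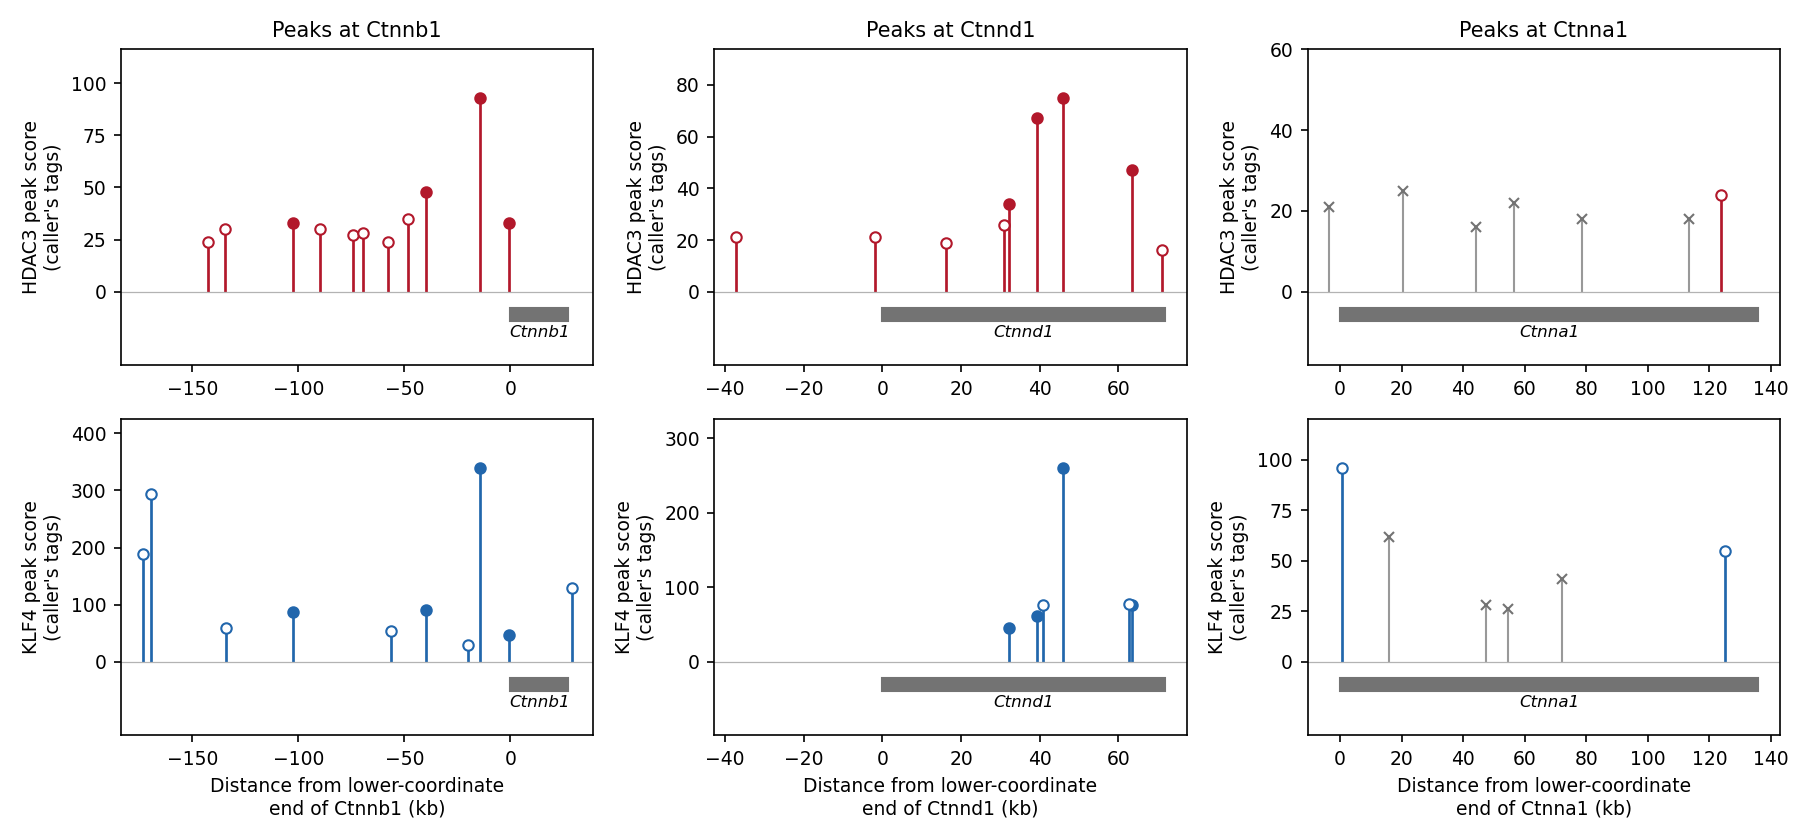
Peak scores of HDAC3 (upper row) and KLF4 (lower row) against distance in kb from the lower-coordinate end of each catenin gene; grey bars are the genes, filled points overlap a peak of the other factor, and grey crosses are peaks in or within 10 kb of the gene whose nearest gene end belongs to another gene. Ctnnb1 has no peak over its gene bar, the Ctnnd1 peaks of KLF4 all stand over it, and none of the Ctnna1 peaks is filled.

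Across the set, 14 of the 34 HDAC3 peaks overlapped a KLF4 peak, 41.2% (exact Clopper-Pearson 95% interval 24.6 to 59.3), beside 25.8% of the whole HDAC3 list. Of the 33 KLF4 peaks, 14 overlapped an HDAC3 peak, 42.4% (25.5 to 60.8), beside 31.7% of the whole KLF4 list. Each whole-list share lies within the interval for these genes, but the intervals treat peaks clustered at 5 genes as independent and are no test. Both shares count the same 14 pairs. Among peaks at or above the median score of their lists the shares were 34.5% of the HDAC3 and 43.5% of the KLF4 peaks of the set, beside 34.9% and 42.9% of all such peaks. Overlap means centres at most 184 bp apart, that is at least 1 bp in common. By height, 10 of the 34 HDAC3 peaks (29.4%) and 13 of the 33 KLF4 peaks (39.4%) were in the top 10% of their lists. That level takes in 10.2% and 10.1% of all peaks. The cadherins had 53.8% (HDAC3) and 60% (KLF4) of their peaks there, and the catenins 14.3% and 22.2%. Median fold over input was 6.45 for HDAC3 peaks of the set, beside 6.85 in the whole list, and 12.1 for KLF4, beside 8.6. Mean input was 4.54 tags beside 2.64 for HDAC3, and 5.65 beside 3.93 for KLF4. Within the top 10%, 8 of 10 HDAC3 peaks overlapped KLF4, beside 86.5% of all HDAC3 peaks of that height, and below it 6 of 24 did, beside 18.9%. For KLF4 the shares were 7 of 13 beside 68.4%, and 7 of 20 beside 27.6%.

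Shared sites had more input and higher scores. HDAC3 peaks of the set averaged 6.32 input tags where they overlapped KLF4 and 3.30 where they did not, beside 4.11 and 2.13 in the whole HDAC3 list. KLF4 peaks of the set averaged 6.61 and 4.95, beside 4.23 and 3.79 in the whole KLF4 list. The median HDAC3 score of the set was 71 where peaks overlapped and 26.5 where they did not. For KLF4 the medians were 145.5 and 96. Input was higher at high peaks in general, with a mean of 5.87 tags in the top 10% of the HDAC3 list and 2.28 below it. Input and peak height were not separated here. Both lists were called against that one input library, and its part in the overlap was not tested.

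The 14 shared sites differed in the balance of the factors. The ratio of HDAC3 to KLF4 normalised tags had a median of 0.846, beside 0.652 over all 14962 pairs (quartiles 0.441 and 0.917). It was lowest at the KLF4-rich sites before Cdh1 (0.346, counting interval 0.282 to 0.423), inside Ctnnd1 (0.358, 0.280 to 0.455) and before Ctnnb1 (0.370, 0.301 to 0.453). Their input numbers were 13, 10 and 14 tags, the part of which in the ratio was not tested. The ratio was 0.977 (0.849 to 1.12) at the top Cdh3 site and 0.987 (0.815 to 1.19) at the highest HDAC3 site inside Cdh1. The sites named were picked from the 14 by ratio or score. Their intervals cover counting error in 1 library per antibody, and no difference between sites was tested. The largest ratio was the one inside Ctnnd1 with no input tag (1.52, 1.07 to 2.17), at the 96.6 percentile of all pairs. Its interval overlaps that of the Cdh3 gene-end pair (1.43) given above. The efficiency of the antibodies may differ, so a ratio of 1 does not mean equal occupancy, and the ratios are compared only among sites.

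**Figure D3:**
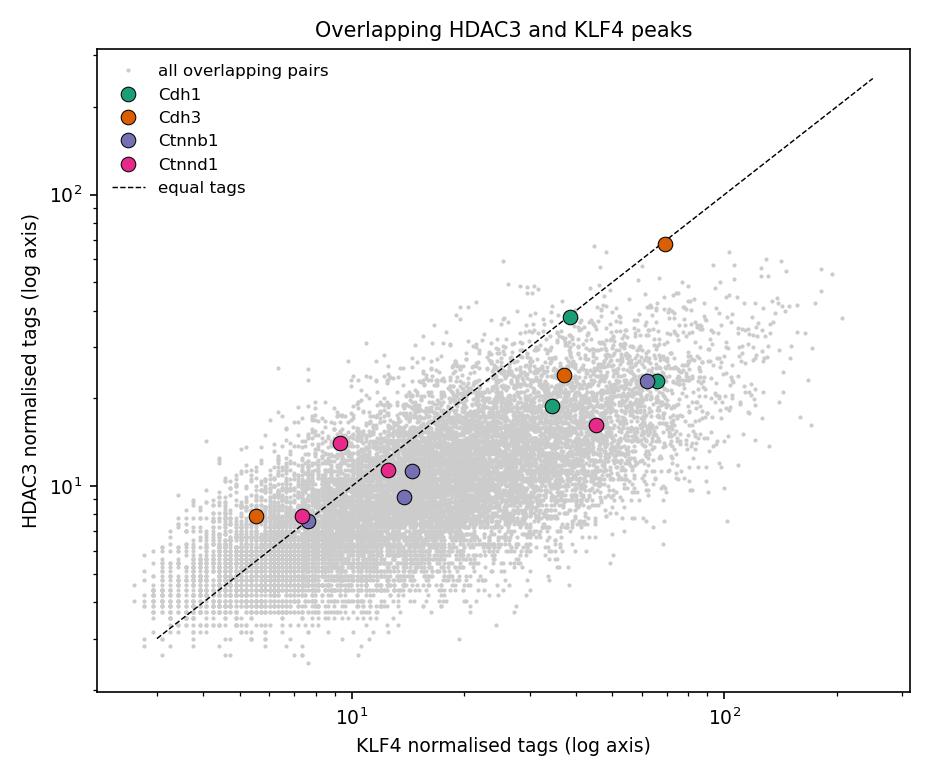
HDAC3 normalised tags against KLF4 normalised tags, both on log axes, for every overlapping pair of peaks (grey) and the 14 pairs of Cdh1, Cdh3, Ctnnb1 and Ctnnd1 (coloured); the dashed line marks equal tags. The Cdh3 pair at 67.6 and 69.2 is the highest HDAC3 point among the 14 coloured pairs. The pairs before Cdh1 and Ctnnb1, both at 22.9 HDAC3 tags, lie well below the line.

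At gene ends, HDAC3 was within 1 kb in 3 of the 5 genes (Cdh3, Ctnnb1 and Ctnnd1), beside 18.9% of all protein-coding genes. A KLF4 peak was there in 3 (Cdh3, Ctnnb1 and Ctnna1), beside 23.1%. Cdh3 and Ctnnb1 had both, beside 10.3% of all genes, and Cdh1 had neither, as did 68.3% of all genes. Within 500 bp of an end, 1 gene remained for HDAC3 and 1 for KLF4, Cdh3 in both cases, beside 11.8% and 15.8% of all protein-coding genes. None of these gene-end peaks reached the top 10% of its list, with scores of 16, 33 and 36 for HDAC3, beside a list median of 22, and of 34, 48 and 96 for KLF4, beside a list median of 65. By number of peaks to which a gene is nearest, Ctnnb1 with 11 HDAC3 peaks exceeded 95% of protein-coding genes and with 10 KLF4 peaks 95.8%, while Ctnna1 with 1 of each exceeded 35.2% and 40.8%. When genes of every type were counted, 10 of the 11 HDAC3 and 8 of the 10 KLF4 peaks were nearer to a noncoding RNA gene or pseudogene than to Ctnnb1, including the peaks of its highest site, which left 1 and 2. A gene with few neighbours is nearest to more sequence. Per 100 kb of the sequence nearest to it, Ctnnb1 had 5.28 HDAC3 and 4.80 KLF4 peaks, Cdh3 had 8.09 and 7.19, Cdh1 had 4.14 and 7.25, Ctnnd1 had 7.08 and 4.72, and Ctnna1 had 3.72 and 3.72. The pooled values over all protein-coding genes were 2.15 and 1.75. By this density Ctnnb1 exceeded 76.9% of genes for HDAC3 and 72.9% for KLF4, and Ctnna1 exceeded 64.6% and 66.7%.

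Other genes of the junction were counted in 5 lists. Of all protein-coding genes, 18.9% had HDAC3 at an end, 23.1% had KLF4, 10.3% had both and 68.3% had neither. Of 16 other classical cadherins, whose proteins mostly mark neural, vascular, muscle or mesenchymal tissues, HDAC3 was at the end of 2 (12.5%) and KLF4 at the end of 1 (6.25%), with none carrying both and 13 carrying neither. Those with a peak were Cdh15, the muscle cadherin (HDAC3 score 26), Cdh4, the retinal cadherin (HDAC3 19), and Cdh11, a cadherin of mesenchymal cells (KLF4 77). Away from the ends HDAC3 peaks were not lacking. These cadherin genes were nearest to a median of 6 HDAC3 and 1 KLF4 peaks, beside 1 and 1 over all protein-coding genes. Such counts grow with gene length and with the sequence nearest to a gene, and many of these genes are far longer than the median of 17169 bp. No density per 100 kb was taken for this list, so the counts do not show denser peaks. Of 7 other catenins, 2 had HDAC3 and 1 KLF4. Jup, whose product plakoglobin is the desmosomal relative of β-catenin, scored 134 for HDAC3 and 653 for KLF4, well above every gene-end peak of the 5 genes described here, and Pkp4, a relative of p120-catenin, scored 33 for HDAC3 alone.

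Among partners at the junction, HDAC3 was at the end of 5 of 19 genes (26.3%) and KLF4 at the end of 9 (47.4%). Both factors were at 3 of these genes. For this list and the next, the shares of all protein-coding genes were 18.9% for HDAC3, 23.1% for KLF4 and 10.3% for both. The adhesion receptor gene Nectin1 scored 33 for HDAC3 and 89 for KLF4, and the polarity scaffold gene Pard3 scored 25 and 59. Nectin2, another nectin, and Limd1, a LIM-domain gene, had KLF4 alone with scores of 201 and 148. In the list of β-catenin destruction and nuclear partners, 5 of 16 genes had HDAC3 (31.2%) and 6 had KLF4 (37.5%), with 2 carrying both. Those were the kinase gene Gsk3b (HDAC3 41, KLF4 73), whose product marks β-catenin for destruction, and Tcf7l2 (38 and 52), which encodes a DNA-binding partner of β-catenin. Csnk1a1, the priming kinase gene, had HDAC3 alone (61), and Bcl9l, a nuclear coactivator gene, KLF4 alone (87).

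Among 8 genes of cadherin repressors and processing enzymes none had HDAC3 at an end and 1 had KLF4 (12.5%). The shares of all protein-coding genes were 18.9% and 23.1%. The KLF4 peak, with a score of 105, was at Adam10, the protease that sheds the E-cadherin ectodomain. The E-cadherin repressor genes Snai1, Snai2, Zeb1, Zeb2 and Twist1 had no gene-end peak of either factor, a state shared by 68.3% of all protein-coding genes. Farther off, Zeb2 was the nearest gene of 9 HDAC3 and 5 KLF4 peaks, Zeb1 of 6 and 3, and Snai1 of 5 and 2. Snai2 and Twist1 were nearest to no peak of either list. The lists are small, and no list was tested against the others.

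**Figure D4:**
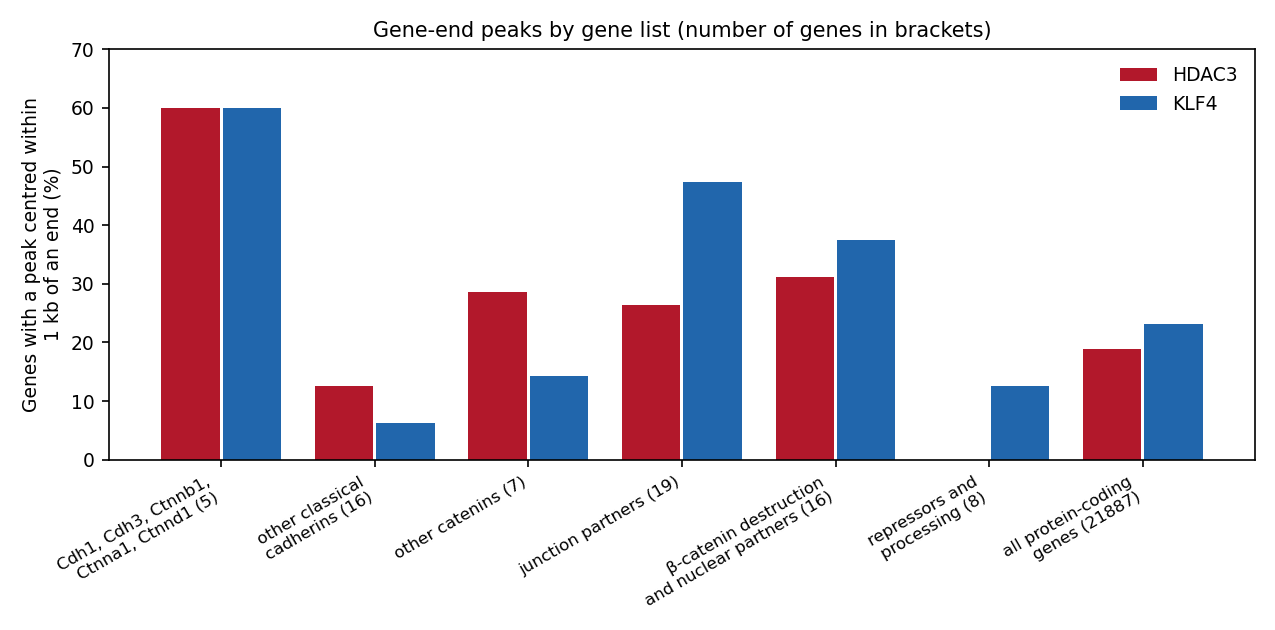
Percent of genes with an HDAC3 (red) or KLF4 (blue) peak centred within 1 kb of an annotated end, for the 5 cadherin and catenin genes, 5 lists of related genes and all protein-coding genes, with the number of genes in brackets; bars are shares with no error, 1 library each. The 5 genes stand at 60% for either factor, beside 18.9% and 23.1% of all genes, and each of the 5 genes accounts for 20%.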

How the data were processed

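Chromatin immunoprecipitation sequencing was done on epidermal chromatin, with an HDAC3, a KLF4 and an input library of 1 sample each. Groups follow the antibody in the labels. The submitters' processing notes name bcl2fastq, STAR, HOMER and the build GRCm38.p5, with tool versions not given in the sources used here. HOMER, per the file headers, called peaks in factor style for each precipitation against the one input, at 185 bp and 4-fold or more over the input and the local region. The deposited signal columns are tags normalised by the authors to 10000000 tags. The lists also give the precipitated tags scaled to the input library and the input tags themselves, unscaled, with 0 written as 0.5, and the fold over input is the ratio of that pair. The deposited score, the fold ratios, the p-value columns and the focus ratio, a fraction, are the caller's own, and no p-value or focus ratio was used here.

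HDAC3 held 56787485 tags and KLF4 61432711, per the file headers. Peaks were placed with Python 3.11.15, pandas 2.3.3 and numpy 2.4.6 on the GRCm38.p6 gene table, whose primary coordinates equal those of GRCm38.p5. Distances run from peak centres to gene ends. Exact Clopper-Pearson 95% intervals come from scipy 1.17.1, and those of tag ratios from the same method on the tags of both peaks. They cover counting error only, since neither PCR copies nor neighbouring peaks of one gene are independent. The placement code was tested on simulated positions. No difference was tested, with 1 library per antibody.

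The members and lists were chosen with earlier results of these data known. Named were all 5 genes, genes sharing an end or a nearer end with their peaks, and in each list up to 4 genes with the highest summed score percentile at gene ends; the repressor genes at 0 were named in addition. Motifs were sought on both strands of the RefSeq promoter windows. Alternatives were stricter peaks, other assignment rules, overlaps and windows.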

Additional observations from a re-analysis of the deposited data

How the results depend on the processing

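No paired analysis was possible because each antibody had 1 library. Peaks at least 8-fold over input left 13 HDAC3 and 21 KLF4 peaks at the 5 genes, and assignment to the nearest end of any gene type left 21 and 21, since noncoding RNA genes and pseudogenes took the rest. The overlap shares ran from 34.5% to 53.8% for HDAC3 and from 33.3% to 48.5% for KLF4, within the counting intervals of the shares as reported. Those intervals are wide and the alternatives mostly reuse the same peaks, so this is no independent check. The whole-list shares moved too: at or above the median score the HDAC3 share was 34.5% beside 34.9% of all, and at 8-fold it was 53.8% (lower limit 25.1) beside 21.7%. An alternative chosen after seeing the data, peaks within 50 kb of an end, kept 27 HDAC3 and 28 KLF4 peaks with shares of 48.1% (lower limit 28.7) and 46.4% (27.5), beside 25.8% and 31.7% of all. The limits treat peaks clustered at 5 genes as independent, so they are no test of a difference from the whole list. Genes with an HDAC3 gene-end peak numbered 1 within 500 bp and 1 at 8-fold (11.8% and 6.76% of all protein-coding genes), and genes with a KLF4 gene-end peak numbered 1 within 500 bp and 1 at or above the median score (15.8% and 13.3%), against 3 for each factor. Within 5 kb the counts were 4 for HDAC3 and 4 for KLF4, beside 46.2% and 46.0% of all. The fold over input rests on few input tags per peak, so single enrichments are imprecise. No second library was analysed, and no sequence under the peaks outside the promoter windows was used here.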
